A study of Mus musculus with 4 samples.

Results

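Resident macrophage and monocyte genes were followed as a list of 34 genes, chosen by name, in RNA of adult mouse heart muscle cells on 4 Agilent 1-colour arrays. An accession in the array files matched 33 of the 34 genes to a probe, and 26 of 12542 genes tested were members of the list. The preparations came from 10-week-old male mice that carry an αMHC promoter-driven Cre and the tetO-controlled reprogramming factors Pou5f1, Sox2, Klf4 and Myc (OSKM). Controls carried the same transgenes and received PBS for 2 days (2 arrays), and the other mice received doxycycline for 2 days by intraperitoneal injection (2 arrays). No array came from mice given doxycycline without the factors, so drug and factors cannot be told apart. How heart muscle cells were separated from other heart cells, and whether each array had its own mouse, is not described, so p-values reflect only the spread among the 4 samples, which may be technical.

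Macrophages live in the healthy heart between the muscle cells, where they clear debris and dying cells. Resident cells are seeded early in life and renew in place, and they are known for the phosphatidylserine receptor Timd4, the folate receptor Folr2 and scavenger receptors. Monocytes arrive from the blood, in larger numbers after injury, and can take on a macrophage state. Both depend on the transcription factor PU.1 (gene Spi1) and on the growth factor receptor Csf1r. The list was divided by general knowledge into a resident class of 10 genes, a monocyte class of 7 genes and a shared class of 17 genes that both kinds of cell use. Several genes are also used elsewhere: Gas6 by vessel and connective tissue cells, and F13a1 and Pf4 by platelets.

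PU.1 binds a purine-rich box, and the promoters of the members were searched for it to show how common it is in the list. RefSeq promoter windows (GRCm38.p6, 250 bases before to 50 after a gene's start) were at hand for 25 of the 34 genes, in 30 windows, some of which overlap. The letters GAGGAA, on either strand, occurred in 18 of the 30 windows (60.0%) and in 28.3% of all 32851 windows, and 16 of the 25 genes had them in at least 1 window. The letters TGCTGA, part of the site that Maf factors bind, occurred in 9 of the 30 windows and in 19.5% of all windows, and neither set of letters contains the other. A match describes the letters and is no measure of binding. The windows of Aif1, Cbr2 and Mrc1, which read lower on both doxycycline arrays, and of Marco, which read high on 1 doxycycline array, are shown 5′ to 3′ on the strand of the gene, with GAGGAA or its reverse complement in capitals.
Aif1 (chr17:35176003-35176302, minus strand): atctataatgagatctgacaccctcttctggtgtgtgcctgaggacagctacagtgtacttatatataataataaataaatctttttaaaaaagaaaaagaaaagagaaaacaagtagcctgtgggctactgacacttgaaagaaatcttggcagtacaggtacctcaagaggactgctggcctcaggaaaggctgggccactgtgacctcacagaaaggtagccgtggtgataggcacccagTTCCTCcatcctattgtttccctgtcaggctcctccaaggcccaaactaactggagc
Cbr2 (chr11:120731972-120732271, minus strand): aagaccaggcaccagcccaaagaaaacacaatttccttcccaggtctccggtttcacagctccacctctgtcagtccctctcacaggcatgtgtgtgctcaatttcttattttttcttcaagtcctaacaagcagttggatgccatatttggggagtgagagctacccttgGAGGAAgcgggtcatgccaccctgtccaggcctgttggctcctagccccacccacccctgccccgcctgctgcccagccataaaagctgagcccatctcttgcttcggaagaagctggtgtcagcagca
Mrc1 (chr2:14229164-14229463, plus strand): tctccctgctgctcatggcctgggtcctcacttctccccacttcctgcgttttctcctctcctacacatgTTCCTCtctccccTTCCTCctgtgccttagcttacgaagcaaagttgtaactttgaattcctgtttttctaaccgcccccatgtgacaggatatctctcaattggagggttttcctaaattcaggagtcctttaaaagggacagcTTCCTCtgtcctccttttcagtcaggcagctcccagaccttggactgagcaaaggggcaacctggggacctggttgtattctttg
Marco (chr1:120504975-120505274, minus strand): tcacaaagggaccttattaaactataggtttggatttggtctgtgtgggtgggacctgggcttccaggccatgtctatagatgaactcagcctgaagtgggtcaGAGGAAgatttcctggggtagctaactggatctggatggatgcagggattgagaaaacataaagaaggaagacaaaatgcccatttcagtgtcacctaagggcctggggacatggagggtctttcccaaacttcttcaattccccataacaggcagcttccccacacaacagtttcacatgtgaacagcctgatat
The capitals began 7 bases before the gene's start in Aif1, 79 bases before it in Cbr2 and 146 bases before it in Marco, and Mrc1 held them at 3 places, 180, 167 and 35 bases before the start. Both Folr2 windows, and those of Ly86, Lyz1 and Lyz2, had no such letters.

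Levels are given on the log2 scale relative to each array's 75th percentile of processed signal. Each difference is the doxycycline mean less the control mean, followed by the SE from limma (n = 2 per group). That percentile lay between a signal of 112 and 248, and the share of spots well above background ranged from 50.6% to 51.8%. Control 1 stands apart from the other arrays: its repeated spots varied by 10.99%, against 4.0% to 4.8% elsewhere, and its correlation with control 2 across genes (r = 0.933) was lower than that of control 2 with doxycycline 2 (r = 0.968). All 26 members tested were higher on control 1 than on control 2, where 46.6% of all genes tested were. The median gap between the controls was 1.52 over the members. Class medians, list medians and the differences of the members tested are therefore also given without control 1. Fewer macrophages and less RNA per macrophage cannot be told apart in such bulk samples.

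Most resident and shared macrophage genes read lower after doxycycline, while the median of the monocyte class was near 0. The median difference was -1.12 for the 8 resident genes tested, -1.02 for the 14 shared genes and 0.08 for the 4 monocyte genes, against -0.06 over all genes tested. Of the 4 monocyte genes, Itgam differed by 0.03 with its brightest probe and by -1.28 with a second. The monocyte median therefore depends on the probe used. All 8 resident and all 14 shared genes were lower on average, as were 54.8% of all genes, and 1 of the 4 monocyte genes was. With the brightest probe of each gene, both doxycycline arrays lay below both controls for 6 of the 8 resident and 8 of the 14 shared genes. They did so for 0 of the 4 monocyte genes and for 20.8% of all genes tested, but the second Itgam probe also lay below both controls. Both lay above both controls for 0 of the 26 members, against 14.5% of all genes. No member was past an adjusted p of 0.05 in limma, in either direction (0 of 26, and 0% of all genes tested), with 0.271 as the lowest adjusted value. Before adjustment, 8 members were lower and 0 higher at p under 0.05, where 3.89% of all genes were lower and 3.17% higher. The same 8 also differed by at least 1 on the log2 scale, as did 3.82% of all genes (lower) and 3.14% (higher). In all, 14 of 26 members had a difference of -1 or lower, against 7.11% of all genes. Without control 1 only Folr2, Ly86, Cbr2, Aif1 and Maf did, and the like share of all genes was not computed. The difference between the classes was not tested.

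Without control 1 the medians were -0.39 for the resident, -0.38 for the shared and 0.62 for the monocyte class, against -0.11 over all genes. On average 18 of 26 members were then lower and 8 higher, where 7327 of all 12542 genes tested were lower. The 14 members that lay below both controls all lay below control 2, since control 2 was the lower control for every member tested. By that looser comparison 44.3% of all genes lay below control 2 on both doxycycline arrays, and 14 of 26 members did. Both lay above control 2 for 5 of 26 members and for 28.4% of all genes. Of the doxycycline arrays, the first was the higher for 11 of 26 members and for 49.7% of all genes. Without control 2 the medians were -1.59, -1.83 and -0.46.

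**Figure D1:**
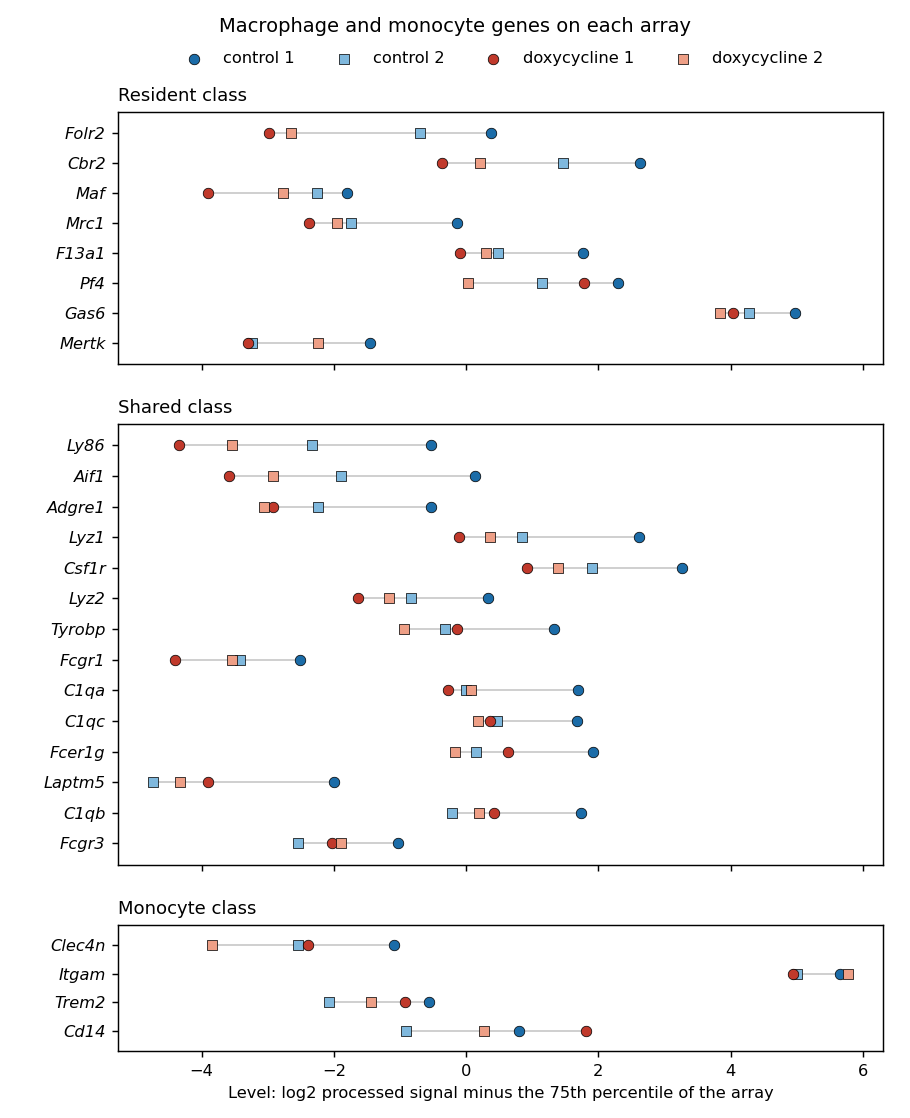
Level of each of the 26 members tested on each array, as log2 processed signal minus the 75th percentile of the array, with 1 point per array and a grey line over their range. Control 1 (dark blue) lies above control 2 (light blue) for every gene, and both doxycycline arrays (red) lie below both controls for 14 genes, none of them in the monocyte class.

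Of the resident class, Folr2 showed the widest gap. This folate receptor is a marker of self-renewing tissue macrophages. Its levels were 0.38 and -0.70 in the controls, against -2.99 and -2.65 after doxycycline. The gap between the groups was wider than that between arrays of either group. The difference was -2.66 ± 0.50 (6.30-fold lower, adjusted p = 0.271), and -2.11 ± 0.35 without control 1 (adjusted p = 0.317). With normexp background correction it was -1.58. Cbr2, a carbonyl reductase found in heart macrophages of the same kind, read 2.62 and 1.46 in control and -0.36 and 0.22 after doxycycline, again without overlap. It differed by -2.11 ± 0.53 (4.33-fold lower, adjusted p = 0.376), and by -1.53 without control 1. A second Cbr2 probe differed by -1.82. These were the 2 resident genes whose gap to control 2 alone was more than 1.5 on the log2 scale.

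The next resident genes lay closer to control 2. Maf, a transcription factor of macrophage identity, read -1.81 and -2.26 in control and -3.90 and -2.76 after doxycycline, which gave -1.30 ± 0.51. Of the 8 resident genes tested, its controls were most alike, and without control 1 it still differed by -1.08. The mannose receptor gene Mrc1 read -0.14 and -1.75 in control and -2.37 and -1.95 after doxycycline. Its difference was -1.22 ± 0.60, and -0.42 without control 1, which was much the higher control. F13a1, a clotting factor subunit that resident macrophages make, read 1.76 and 0.48 against -0.09 and 0.31. It differed by -1.01 ± 0.53, and by -0.37 without control 1.

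Mertk and its ligand Gas6, with which macrophages take up dying cells, differed by less than 1 on the log2 scale with all 4 arrays. Gas6, which binds phosphatidylserine and bridges it to Mertk, read 4.97 and 4.28 in control and 4.04 and 3.83 after doxycycline, a difference of -0.69 ± 0.44 with no overlap, and of -0.35 without control 1. Mertk read -1.45 and -3.24 in control and -3.29 and -2.24 after doxycycline, so that the groups overlapped. Its difference of -0.42 ± 0.69 was positive without control 1 (0.47) and without doxycycline 1 (0.10). Pf4, a chemokine of platelets and of some macrophages, read 2.29 and 1.15 in control and 1.78 and 0.02 after doxycycline, with overlap, and differed by -0.82 ± 0.69. It stood at -0.25 without control 1 and at 0.06 without doxycycline 2. The 2 other resident genes, the apoptotic cell receptor Timd4 and the haemoglobin scavenger receptor Cd163, were not well above background on any array. That was so of 34.6% of all genes with a named probe.

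Of the shared genes tested, Ly86 and Aif1 had the lowest differences. Ly86, a secreted partner of a Toll-like receptor relative, read -0.53 and -2.32 in control and -4.34 and -3.54 after doxycycline. It differed by -2.52 ± 0.66 (5.72-fold lower, adjusted p = 0.403) and by -1.62 without control 1. Doxycycline 1 was not well above background for it, and with normexp background correction the difference was -1.08. Aif1, an actin-bundling protein better known as Iba1, read 0.14 and -1.90 in control and -3.58 and -2.92 after doxycycline. Its difference was -2.37 ± 0.70 (5.17-fold lower, adjusted p = 0.476), -1.35 without control 1 and -1.18 with normexp. Both genes kept the doxycycline arrays below the lower control by more than 1 log2 unit on average.

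Csf1r and Adgre1, the genes most often used to mark mouse macrophages, were lower by less. Adgre1, which encodes F4/80, read -0.53 and -2.24 in control and -2.93 and -3.05 after doxycycline. It differed by -1.61 ± 0.61 and, without control 1, -0.76, and a second probe gave -1.50. Csf1r, the receptor for the survival factor of macrophages, read 3.27 and 1.91 against 0.92 and 1.39, a difference of -1.43 ± 0.55 that was -0.76 without control 1. Of its other 2 probes, 1 differed by -1.49 and 1 by -0.35, so the probes of this gene disagreed in size. The groups of the chosen Adgre1 and Csf1r probes did not overlap.

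The lysozyme genes differed in the same direction. Lyz1 read 2.61 and 0.84 in control and -0.11 and 0.37 after doxycycline, and Lyz2 read 0.33 and -0.84 against -1.63 and -1.17. They differed by -1.60 ± 0.63 and -1.15 ± 0.52, and by -0.71 and -0.56 without control 1. These genes are close copies that encode bacteria-killing enzymes of phagocytes, and whether each probe tells them apart is not known, because probe sequences were not used here.

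Fc receptors and their signal partners had smaller differences, and most overlapped between groups. Fcgr1, the high-affinity IgG receptor, read -2.51 and -3.42 in control and -4.41 and -3.54 after doxycycline. It differed by -1.0 ± 0.52 without overlap and by -0.55 without control 1, and doxycycline 1 was not well above background. Tyrobp, the adaptor that carries activating signals, differed by -1.04 ± 0.63 and by -0.22 without control 1. Fcer1g, the common Fc receptor chain, differed by -0.80 ± 0.66 and by 0.08 without control 1. Fcgr3, a low-affinity IgG receptor, differed by -0.18 ± 0.57, by 0.58 without control 1 and by 0.17 when arrays were scaled to their median.

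The 3 chains of complement C1q, which macrophages secrete and which form 1 protein, stayed close to control 2. C1qa read 1.69 and 0.01 in control and -0.27 and 0.08 after doxycycline, and differed by -0.94 ± 0.61. C1qc read 1.68 and 0.47 against 0.36 and 0.18, a difference of -0.81 ± 0.51, and C1qb read 1.74 and -0.21 against 0.42 and 0.19, a difference of -0.46 ± 0.66. Control 1 was the high array for each chain, and without it they differed by -0.10, -0.20 and 0.51. No sign of C1qa or C1qc turned with the scaling between arrays or the array left out.

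The other shared genes were near background. Laptm5, a lysosomal protein of blood cells, read -2.0 and -4.73 in control and -3.91 and -4.32 after doxycycline, and was well above background on control 1 and doxycycline 1 alone. It differed by -0.75 ± 0.85, and by 0.62 without control 1. Ptprc, which encodes the pan-leukocyte protein CD45, was well above background on control 1 alone, as were 2.05% of all genes, and Spi1, which encodes PU.1, on no array. Both genes were thus dim on control 2 as well as on the doxycycline arrays, and Spi1 also on control 1. Cd68 had no matched probe and was not analysed here.

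**Figure D2:**
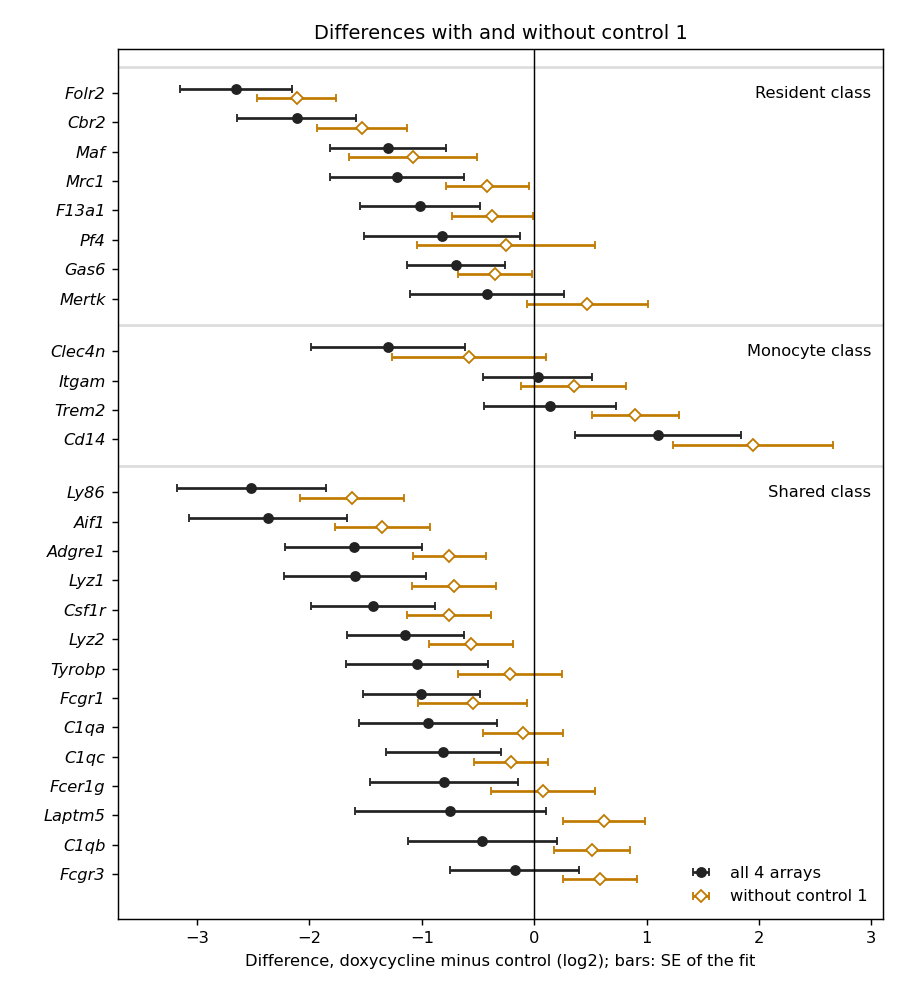
Difference between doxycycline and control for the 26 members tested, on the log2 scale with the SE of the fit as bars, for all 4 arrays (black) and without control 1 (open). Folr2, Ly86, Aif1 and Cbr2 stay at -1.35 or lower without control 1, while Cd14 goes from 1.1 to 1.95 and 5 genes cross from below to above 0.

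The monocyte class had no common direction, and 1 of its genes, Marco, was high on doxycycline 1 alone. Cd14, the co-receptor for bacterial lipopolysaccharide, read 0.79 and -0.91 in control and 1.81 and 0.27 after doxycycline, and the groups overlapped. Its difference of 1.1 ± 0.74 was 1.95 without control 1 and 0.33 without doxycycline 1. Marco, a scavenger receptor for bacteria, had processed signals of 4.20 and 10.8 in the controls, against 233 and 5.03 after doxycycline. It was well above background on doxycycline 1 only, where its level was -0.09. Its level on doxycycline 2 (-5.26) was not well above background and lay below those of the controls (-4.74 and -3.98). No fold between the groups is therefore given.

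Plac8, a gene of circulating monocytes, and the scavenger receptor gene Msr1 were also well above background on doxycycline 1 alone. Plac8 read -3.83 and -5.43 in control and -3.50 and -5.51 after doxycycline, and Msr1 read -3.96 and -6.00 against -3.42 and -6.03. Their levels on doxycycline 1 were close to those on control 1. By any of their probes, 3 of the 7 monocyte genes, 0 of 10 resident genes and 0 of 16 shared genes with a probe were above background on doxycycline 1 alone, where 1.33% of all genes were. The lowest level well above background was -4.44 on doxycycline 1 and -3.69 on control 1, so that Plac8 and Msr1 on control 1 lay above the former and below the latter.

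With their brightest probes, the 3 other monocyte class genes did not separate the groups. Trem2, a lipid receptor of recruited macrophages, read -0.56 and -2.08 in control and -0.93 and -1.44 after doxycycline, and differed by 0.14 ± 0.59 and, without control 1, by 0.90. Clec4n, which encodes the fungal receptor Dectin-2, read -1.10 and -2.54 against -2.39 and -3.85 and differed by -1.30 ± 0.68 and, without control 1, by -0.58. Doxycycline 2 was not well above background for it. Itgam, which encodes CD11b, gave results that depended on the probe. The brightest probe differed by 0.03 ± 0.48 (0.35 without control 1). A second differed by -1.28, at levels -0.91 and -2.67 (control) and -3.25 and -2.89 (doxycycline), so that its groups did not overlap. The remaining probe was well above background on doxycycline 1 alone.

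**Figure D3:**
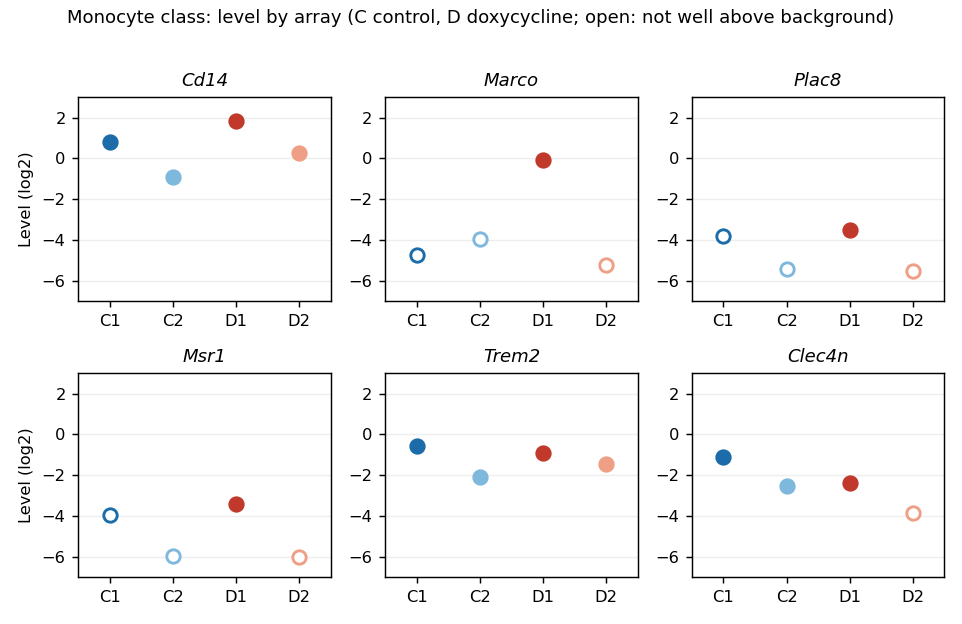
Level of 6 monocyte class genes on each array (log2 processed signal minus the 75th percentile), with filled points well above background and open points not. Marco reads -0.09 on doxycycline 1 and lies below -3.9 on the other arrays, whereas Trem2 and Clec4n show no separation of control and doxycycline.

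Other macrophage genes, listed apart from the members, are given for comparison as a description. Of 14 further resident markers 10 were tested. Their median difference was -1.50, and -0.90 without control 1, and both doxycycline arrays lay below both controls for 6 and above them for 0, beside 20.8% and 14.5% of all genes, the shares against which the like counts of the other lists stand. The fractalkine receptor gene Cx3cr1 read -1.14 and -3.16 in control and was not well above background after doxycycline, at least 4.22-fold lower (adjusted p = 0.227). The lectin gene Cd209f read 0.34 and -0.96 in control and -4.18 and -3.11 after doxycycline, a difference of -3.33 ± 0.60 (adjusted p = 0.248) that was -2.69 without control 1. Ms4a7, a membrane protein of macrophages, differed by -2.46 ± 0.57 and by -1.72 without control 1. In that list 9 of the 10 genes tested were lower on average and 1 higher, where 54.8% of all genes were lower. Leaving out control 1, the count lower was 7. Lyve1 differed by 0.11 ± 0.45, Ltc4s by -0.12 ± 0.45 and Mgl2 by -0.28 ± 0.56. Their differences without control 1 were 0.46, 0.28 and 0.33. Of 12 further markers of monocytes and recruited macrophages 6 were tested, with a median difference of 0.08 that was 1.3 without control 1, and 2 lay above both controls and 1 below. Chil3, a chitinase-like protein, differed by 2.23 ± 0.73 and the matrix protein gene Thbs1 by 2.34 ± 0.79, both highest on doxycycline 1, while Vcan differed by -0.47 ± 0.44. The monocyte chemokine receptor gene Ccr2 did not reach well above background on the 4 arrays. None of the genes in these lists passed an adjusted p of 0.05.

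Genes that feed and relay macrophage signals were mixed. The growth factor list (5 of 7 tested) had a median difference of 0.34, and 0.71 without control 1. Csf1, the ligand of Csf1r, read 1.3 and 0.93 in control and 3.67 and 0.60 after doxycycline, so that doxycycline 1 alone was high. The other ligand, Il34, differed by -0.78 ± 0.56, and by -0.08 without control 1. Csf2rb, a shared chain of cytokine receptors, differed by 1.58 ± 0.85 (2.31 without control 1), and its groups overlapped. Of 10 kinases and signal proteins tested, 3 lay below both controls and 1 above, beside 20.8% and 14.5% of all genes, and their median of -0.40 was 0.31 without control 1. The Src family kinase gene Lyn was not well above background after doxycycline and was at least 2.51-fold lower, Btk likewise at least 1.84-fold lower, and Syk differed by 1.44 ± 0.45. Among 8 transcription factor genes tested, Cebpb (1.42 ± 0.54), Nr4a1 (1.12 ± 0.43) and the lipid-sensing receptor gene Nr1h3 (1.0 ± 0.40) lay above both controls and 2 genes below. Their list median was 0.09, and 0.71 without control 1, and these factors are also made by muscle and other cells.

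The phagocyte oxidase and cytoskeleton list (7 tested) had a median difference of -0.41, with 2 genes below both controls (20.8% of all genes) and 0 above (14.5%). Without control 1 the median was 0.21, of the opposite sign. The surface peptide gene Cd52 differed by -1.51 ± 0.59 (-0.72 without control 1) and the GTPase gene Rac2 by -0.81 ± 0.59 (-0.13 without control 1). For the actin regulator gene Coro1a the difference was -0.63 ± 0.63 (0.21 without control 1). Of the receptors and bridging proteins for dying cells (7 tested, median -0.16, and 0.51 without control 1), the integrin chain gene Itgb5 differed by 0.75 ± 0.41, the fatty acid and scavenger receptor gene Cd36 by 0.71 ± 0.40, and Tyro3, a relative of Mertk, by -0.63 ± 0.40.

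**Figure D4:**
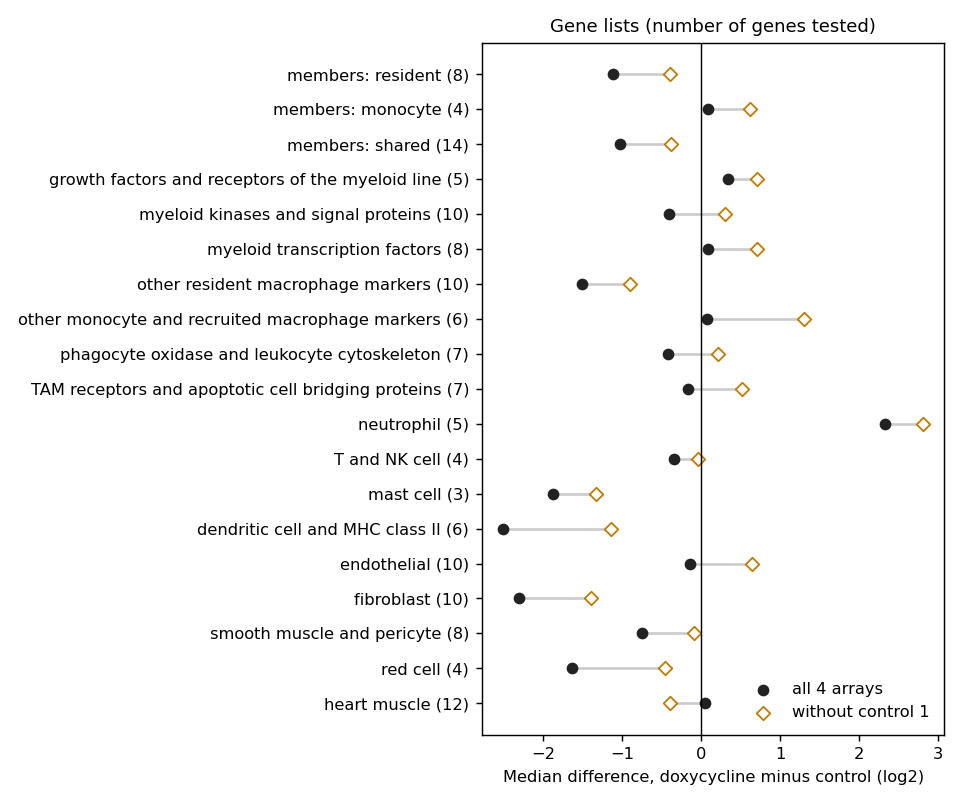
Median difference between doxycycline and control for the member classes and for each further list with at least 3 genes tested (number in brackets), with all 4 arrays (black) and without control 1 (open), on the log2 scale. The resident class, the further resident markers and the red cell, mast cell, fibroblast and dendritic cell lists lie at -1.12 or lower with all arrays, and the neutrophil list lies at 2.33.

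Marker lists made for other cell types also differed between the groups, and their part in the results above was not tested. Dendritic cell and MHC class II genes were lower still, by a median of -2.51 over the 6 of 10 tested (-1.14 without control 1), with all 6 below both controls, H2-Ab1 at -2.29 ± 0.77 and H2-Eb1 at -3.14 ± 0.77. Their summed level was 41.8 and 8.11 in control and 2.56 and 3.68 after doxycycline, in units of the array's 75th percentile signal. Fibroblast markers (10 of 10 tested) had a median of -2.31 (-1.39 without control 1) and summed levels of 221 and 68.8 against 80.6 and 86.4, with Col1a2 at -2.49 ± 0.71 and Dcn at -0.32 ± 0.60. Mast cell markers (3 of 6 tested) had a median of -1.87 (-1.33 without control 1), Mcpt4 standing at -2.76 ± 0.64 and Tpsb2 at -0.72 ± 0.44, and summed levels of 1.22 and 0.58 against 0.16 and 0.28. Cma1, Fcer1a and Ms4a2 of that list were not well above background on any array.

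The median of the neutrophil genes went the other way, while single genes were mixed. It was 2.33 over the 5 of 12 tested (2.82 without control 1). The 3 genes S100a8, S100a9 and Retnlg lay above both controls, and 2 genes were lower on average (0 without control 1). The summed level was 4.84 and 2.25 in control and 17.6 and 7.82 after doxycycline, highest on doxycycline 1. S100a9, an alarmin of neutrophils and monocytes, differed by 3.26 ± 0.66, Elane by -0.39 ± 0.54 and Camp by -0.34 ± 0.62. Ltf was well above background on control 2 alone, and Ngp and Mmp8 on doxycycline 1 alone. Mmp9, Cxcr2 and Mpo were not well above background on any array.

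Endothelial genes had a median of -0.14 (10 of 10 tested, 0.64 without control 1) and summed levels of 322 and 93.4 against 94.8 and 136, with Egfl7 at -1.15 ± 0.70 and Flt1 at 0.23 ± 0.71. Red cell genes (4 of 7 tested) stood at -1.64 and, without control 1, at -0.46, Hba-a1 at -1.62 ± 0.77 and Hba-a2 at -1.53 ± 0.73, with summed levels of 324 and 66.7 against 45.1 and 53.8. Control 1 was the highest array for each of these sums. Smooth muscle and pericyte genes (8 of 8 tested) stood at -0.75 and at -0.09 without control 1, with Acta2 at -2.47 ± 0.54 and Rgs5 at -0.51 ± 0.51. T and NK cell genes (4 of 10 tested) stood at -0.34 and at -0.04 without control 1, with Cd4 at -0.34 ± 0.49 and Nkg7 at -0.48 ± 0.41. Another probe of Cd4 and another of Nkg7 were not well above background on any array, so the probes of these genes disagreed. No B cell gene was tested, and of the platelet list only Gp1bb was (-0.17 ± 0.50). Heart muscle genes (12 of 12 tested) had a median difference of 0.05 and, without control 1, of -0.39, with Myh6 at -0.51 ± 0.45 and Myl3 at -0.33 ± 0.40.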

How the data were processed

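RNA was measured in 4 samples, grouped by title. Per the file headers, the authors measured Cy3 intensity per spot using Agilent's Feature Extraction software, version 10.7.1.1 (array design build mm9). The deposited processed intensity is background-subtracted, linear and not normalized between arrays. Flags in the other columns the authors deposited mark spots well above background, saturated (there were 0) or outlying. Later steps are not given in the sources used here. Columns of other series numbered 0.

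Accessions, without versions, were named through a RefSeq table of GRCm38.p6 (27508 of 39429 probes, 20886 genes). The log2 signal minus the 75th percentile of non-control spots was averaged over the spots of a probe without outliers. Probes well above background on at least 2 of 4 arrays were kept, and the brightest stood for a gene. Of the 26 members tested, 0 were above background in 1 group alone. Where every array of a group was below that flag, a fold is a bound against the higher of its own value and the lowest signal well above background on each array. Two-sided tests came from limma 3.58.1 in R 4.3.3 (4.69 prior and 2 residual degrees of freedom), with Benjamini-Hochberg adjustment over 12542 genes and a threshold of 0.05. The smallest permutation p for groups of 2 is 0.333. The fit was tested on simulated data in which every gene had the same spread and no array stood apart, unlike these data. Arrays' number and signal over background limit the precision.

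The members, classes and lists were chosen with earlier results of these data known. All members were described, with the 3 genes of smallest p from each pathway list and the 2 of highest mean level from each cell type list. Ccr2, Lyve1, Ltc4s, Mgl2, S100a8, Retnlg, Camp, Ltf, Ngp, Mmp8 and genes named as dim fell outside that rule. Some of them were chosen after their values were seen. As alternatives, normexp (offset 50, on median signals) replaced the processed signal, arrays were scaled by quantiles or the median, filters were changed, probes of a gene were averaged, and the fit used a variance trend, robust variance, array weights, the replicate number as a block and each array left out, in which the gene set was kept and a lone array was assumed to vary like the other group. Replicate numbers were not stated to mark shared animals. Tables and figures were made in Python 3.11.15 (pandas 2.3.3, numpy 2.4.6, matplotlib 3.10.9).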

Additional observations from a re-analysis of the deposited data

How the results depend on the processing

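Of 362 recomputed differences of single members, 341 kept their sign and their side of the threshold, 16 changed sign and 5 passed. The median of all genes moved by 0.35 with scaling to the median and by -0.25 with no filter on dim probes. With scaling to the median 95 genes were higher and 33 lower in limma, none of them members, and Fcgr3 stood at 0.17. The replicate block gave 152 higher and 143 lower, and 4 members lower (Folr2, Ly86, Aif1 and Cbr2). That fit had infinite prior degrees of freedom, and the same-numbered arrays did not deviate together (r = -0.09 across genes), so the numbers are not taken to pair the samples. An unadjusted p under 0.05 with a log2 difference of at least 1 gave 394 higher and 479 lower, and 8 members lower. The narrow classes had medians of -2.11 (resident, 3 genes tested), -0.10 (monocyte, 2 genes) and -0.94 (shared, 21 genes), and the mean of a gene's probes gave -0.24 for the monocyte class. With normexp the medians were -0.69, 0.06 and -0.74, and Ly86, Aif1, Folr2, Adgre1 and Maf stood at -1.08, -1.18, -1.58, -0.86 and -0.75. Itgam stood at -0.0908 with quantile normalization, at -0.62 with the mean of its probes and at -1.28 with another probe, chosen after seeing the data, and Trem2 at -0.0824 with normexp. With each array left out in turn, 0 to 87 genes were higher and 0 to 84 lower, and 0 to 1 members were lower (Ly86, -2.92, adjusted p = 0.0490, without doxycycline 2). The counts other than 0 came without a doxycycline array, where prior degrees of freedom were 1013. The ranges were -1.59 to -0.39 for the resident median, -1.83 to -0.38 for the shared median and -0.46 to 0.62 for the monocyte median. They were -1.31 to 0.47 for Mertk, -1.70 to 0.0562 for Pf4, -0.38 to 0.44 for Itgam, -0.62 to 0.90 for Trem2, -0.93 to 0.58 for Fcgr3, -1.69 to 0.0791 for Fcer1g, -1.44 to 0.51 for C1qb and -2.11 to 0.62 for Laptm5. The causes were not tested. Signal over background limits Ly86, Laptm5, Fcgr1, Clec4n and the 7 members not tested.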

Other observations

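Some pathway genes, chosen after their values were seen, were well above background on 1 array alone. Runx1, Cybb and Cd53 were so on doxycycline 1, as were the members Plac8, Msr1 and Marco. Siglec1, a sialic acid receptor of macrophages, and Gpr34 were so on control 1, as was the member Ptprc. Of the 72 listed pathway genes with a probe, 14 were not well above background on any array.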
